A study of Arabidopsis thaliana with 6 samples.

Results

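Chloroplasts hold their own genome, and much of the control of its genes lies in what happens to the transcripts. Long precursor RNAs are cut, trimmed at both ends, edited and spliced, and RNA-binding proteins keep the products from being degraded. The chloroplast ribonucleoproteins (cpRNPs) are nuclear-encoded, abundant proteins with a pair of RNA recognition motifs that bind many plastid mRNAs, while a small set of nuclear-encoded ribonucleases makes and removes the RNA ends. Transcript levels of 9 such genes of Arabidopsis thaliana were compared here between wild-type seedlings and pp7l-1 mutants, named for the phosphatase-like protein PP7L, which the series places in chloroplast development. The genes were taken by locus code out of 33341 in the count tables. They comprise 6 cpRNP genes (CP31A, CP31B, CP29A, CP29B, CP28A and CP33A) and 3 ribonuclease genes (RNJ, RNE and PNP).

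Whole seedlings aged 4 days were sequenced, with 3 libraries of total RNA from the wild type (Col in the sample titles) and 3 from pp7l-1. All had been raised on agar with sucrose in long days, under the same light and temperature. The labels do not describe the pp7l-1 lesion. They also leave unsaid whether each library is a separate culture, and p-values here cover only the spread among these libraries, which may be technical.

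Libraries held between 11269557 and 16744328 counts. Plastid genes made up 67.9% to 72.5% of a wild-type library and 55.1% to 63.2% of a pp7l-1 library, and the photosystem gene psbA alone 45.7% to 51.8% and 20.5% to 28.6%. Genes annotated as nuclear ribosomal RNA took 7.56% in pp7l-1 replicate 1 and at most 0.0151% in the other 5 libraries, so that library stands apart. PP7L itself (AT5G10900) had 24, 22 and 21 counts in the wild type and 280, 247 and 315 in the libraries labelled pp7l-1. Totals per gene do not show whether these reads come from a whole or a partial transcript, and this was not tested. Every direction below rests on the labels. Green-tissue markers (LHCB1.3, RBCS1A, CFBP1 and CA1) were present at a summed level of 9562 to 13040 CPM in the wild type and 12140 to 15750 in pp7l-1. CPM are counts scaled to a common library size, here with the TMM factors of edgeR. These factors were 0.93, 0.93 and 0.75 in the wild type and 1.09, 1.05 and 1.35 in pp7l-1 (replicates 1 to 3). A higher factor lowers the CPM of a library. Of the 4 markers 0 passed edgeR's test, although all 4 had positive log2 fold changes (0.23 to 0.58). Of 6 root markers, 4 fell, 1 did not pass (GL2, log2 fold change 0.52) and 1 was too low to test. The summed level of the 6 was 41.7 to 47.9 CPM in the wild type and 15.4 to 23.0 in pp7l-1. Of 8 seed and embryo markers, 5 rose, 1 did not pass and 2 were too low to test, and the sum went from 5.79 to 8.82 CPM up to 33.9 to 126.5 CPM. Of 4 shoot meristem markers only 2 could be tested and 1 of these rose, with sums of 2.83 to 3.43 and 4.24 to 7.18 CPM. Of 4 stomatal markers 3 could be tested and 0 passed, with sums of 5.598 to 9.13 and 5.36 to 8.07 CPM. The rest of both lists were too low to test. The meristem marker WUS was at 0 counts in the 3 wild-type libraries and at 1, 2 and 2 in pp7l-1. CLV3, the other untested meristem marker, had 2, 2 and 0 counts against 0, 0 and 2. Both are too low to be read as a change. The part of these shifts in the results below was not tested, and in whole seedlings more cells of a type cannot be told apart from more RNA per cell.

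The cpRNP genes include 2 pairs of close paralogues. In RefSeq sequences of the assembly TAIR10.1, the coding sequences of CP29A and CP29B were identical at 81.6% of 864 aligned bases, and those of CP31A and CP31B at 77.3% of 862. The other 13 pairs among the 6 genes lay between 58.1% and 66.2%. The most similar windows of 90 coding bases are shown because they bear on whether reads of a paralogue pair can be kept apart. Capitals mark the bases that differ within a pair, 11 for CP31A and CP31B and 8 for CP29A and CP29B, read 5′ to 3′ on the coding strand from coding base 485 (CP31A), 374 (CP31B), 307 (CP29A) and 283 (CP29B).
CP31A: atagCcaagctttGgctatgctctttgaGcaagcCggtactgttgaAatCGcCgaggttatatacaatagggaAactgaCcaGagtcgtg
CP31B: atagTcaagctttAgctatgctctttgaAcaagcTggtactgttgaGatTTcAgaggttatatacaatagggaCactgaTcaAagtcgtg
CP29A: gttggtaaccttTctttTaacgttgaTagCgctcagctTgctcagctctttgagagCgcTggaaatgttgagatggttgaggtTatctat
CP29B: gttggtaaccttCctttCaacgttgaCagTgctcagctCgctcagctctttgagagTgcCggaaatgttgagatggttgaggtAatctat
The longest run shared without a mismatch by the transcripts was 20 bases for CP31A and CP31B and 26 bases for CP29A and CP29B. The labels give neither the read length nor how reads with several matches were counted.

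Of the 9 genes, 7 were higher in pp7l-1 in edgeR's quasi-likelihood test (adjusted p under 0.05), and 0 were lower. They were CP33A, CP29A, CP28A, CP31B, RNJ, PNP and RNE, with increases between 1.53-fold and 2.48-fold. Across all 18115 genes tested, 10.6% were called higher and 11.3% lower by the same rule. At an unadjusted p under 0.05 in edgeR, 8 of the 9 were higher and 0 lower, where 17% of all tested genes were higher and 17.7% lower. DESeq2 called 5 of the 9 higher and 0 lower, and of the 21429 genes it gave an adjusted p, 7.23% higher and 7.49% lower. The median log2 fold change of the 9 genes was 0.87, and that of all genes -0.01. All 9 passed the filter on low counts.

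The count rested in part on single libraries. Leaving out pp7l-1 replicate 3 kept it at 7. It was 6 when wild-type replicate 2 or 3 was left out, and 5 when the library left out was wild-type replicate 1, pp7l-1 replicate 1 or pp7l-1 replicate 2. CP33A, CP29A, CP28A, RNJ and PNP were called in each of these fits. CP31B and RNE were the ones that dropped out.

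**Figure D1:**
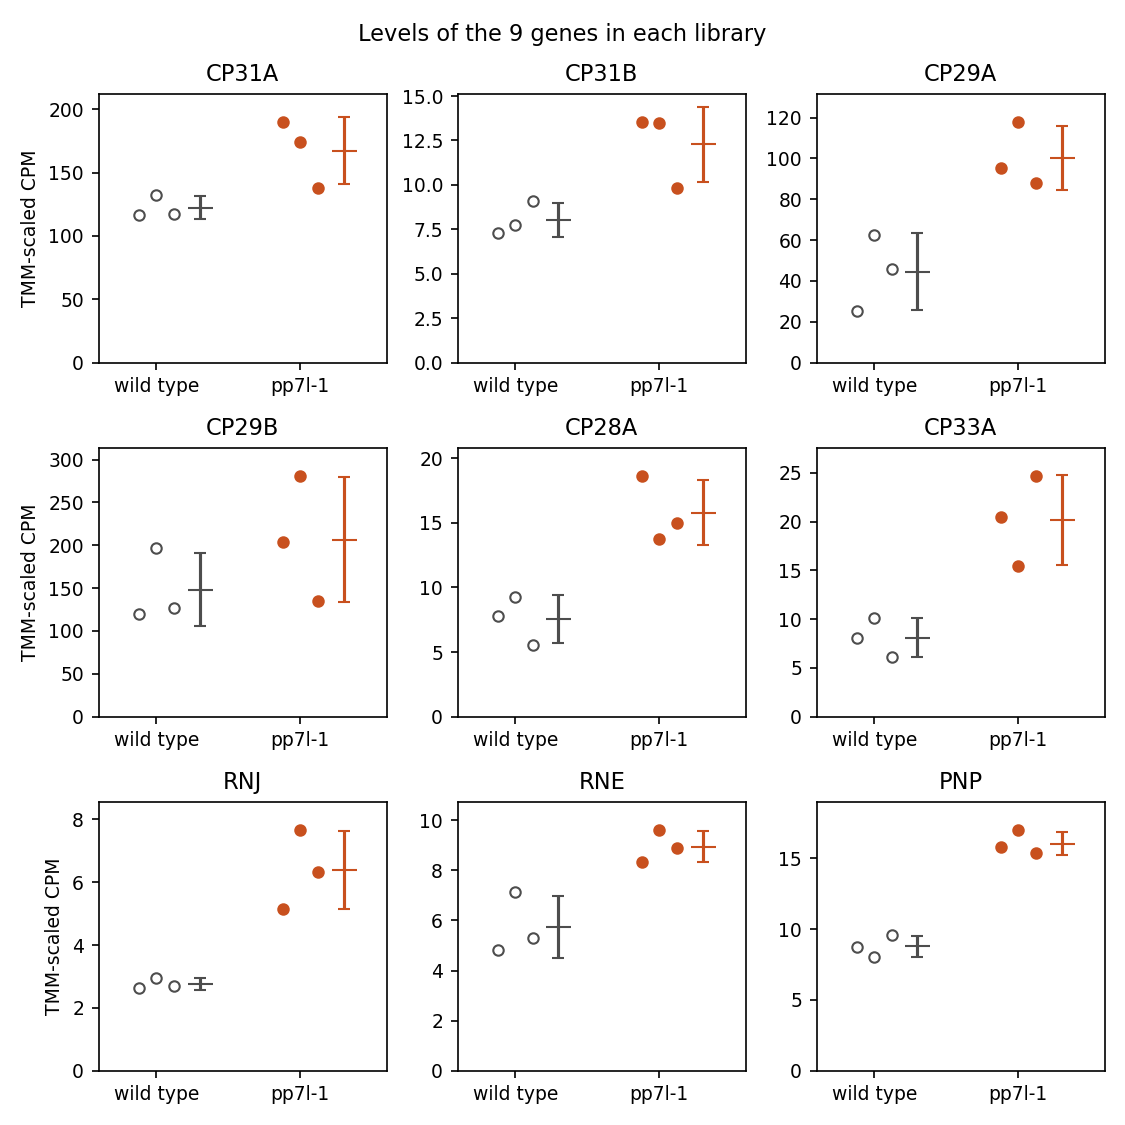
TMM-scaled CPM (linear axes from 0) of each gene in the 3 wild-type (open) and 3 pp7l-1 (filled) libraries, with the mean and SD of each group beside the points. The groups are separate for 8 genes and overlap for CP29B.

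Among the cpRNPs, CP33A binds a broad set of chloroplast mRNAs and is needed for green, viable seedlings. The gene (AT3G52380) lies on the plus strand of chromosome 3 at 19421397 to 19423097 (TAIR10.1) and has 4 exons. It stood at 8.06, 10.1 and 6.12 CPM in the wild type and at 20.5, 15.4 and 24.6 CPM in pp7l-1. Every pp7l-1 library was above every wild-type library, with replicate 3 the highest. The means were 8.097 ± 1.99 and 20.2 ± 4.61 CPM (SD, n = 3), and the log2 fold change of 1.31 ± 0.22 (SE) had an adjusted p of 0.000734 with edgeR. This was the largest of the 9 changes. Of its exon bases, 7.57% lie in another counted gene.

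CP29A (AT3G53460; chromosome 3, 19818975 to 19821519, minus strand, 5 exons) acts together with CP31A in keeping chloroplast mRNAs stable in the cold. Its levels were 25.2, 62.5 and 45.9 CPM in the wild type and 95.2, 117.7 and 87.8 CPM in pp7l-1. The wild-type libraries differed among themselves, with a coefficient of variation of 42.0%, and all lay below the pp7l-1 libraries. The level rose from 44.5 ± 18.7 to 100.3 ± 15.6 CPM, a log2 fold change of 1.17 ± 0.27 (edgeR adjusted p = 0.00641).

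Its paralogue CP29B (AT2G37220; chromosome 2, 15634466 to 15636522, minus strand, 5 exons) had 119.8, 197.3 and 127.2 CPM in the wild type and 203.6, 280.4 and 134.6 CPM in pp7l-1. The groups overlapped, since pp7l-1 replicate 3 lay below wild-type replicate 2. The log2 fold change was 0.48 ± 0.27 (95% interval -0.10 to 1.06), with an edgeR adjusted p of 0.233. No change was called, and the interval holds both 0 and an increase of up to 1.06.

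CP31A (AT4G24770; chromosome 4, 12765761 to 12769419, minus strand, 4 exons) is needed for the editing of many chloroplast sites and for the stability of several mRNAs, that of the NADH dehydrogenase-like complex gene ndhF among them. It had 116.6, 132.6 and 117.1 CPM in the wild type and 189.6, 174.0 and 138.1 CPM in pp7l-1. The groups did not overlap, although pp7l-1 replicate 3 came within a few CPM of wild-type replicate 2. The log2 fold change of 0.45 ± 0.21 (95% interval 0.02 to 0.89) did not pass after adjustment over all genes (edgeR adjusted p = 0.129).

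CP31B (AT5G50250; chromosome 5, 20452487 to 20454041, minus strand, 4 exons), which shares editing sites with CP31A, was at 7.29, 7.72 and 9.09 CPM in the wild type and at 13.5, 13.5 and 9.85 CPM in pp7l-1. Again pp7l-1 replicate 3 was the lowest of its group and close to the highest wild-type library. That library had the highest TMM factor (1.35), and its raw count of CP31B was 177, against 165 and 194 in pp7l-1 replicates 1 and 2. The level rose from 8.03 ± 0.943 to 12.3 ± 2.11 CPM, a log2 fold change of 0.61 ± 0.19 (edgeR adjusted p = 0.0320). The adjusted p was 0.0601 with DESeq2 and between 0.00950 and 0.118 with 1 library left out, over 0.05 without wild-type replicate 1 or 2 or pp7l-1 replicate 1 or 2. Of its exon bases, 7.31% lie in a neighbouring counted gene.

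CP28A (AT1G60000; chromosome 1, 22093353 to 22094802, minus strand, 2 exons) had 110, 144 and 60 counts in the wild type and 227, 198 and 269 in pp7l-1. Scaled, these were 7.78, 9.27 and 5.57 CPM against 18.6, 13.8 and 14.97 CPM, with no overlap. The log2 fold change was 1.05 ± 0.21, or 2.07-fold (edgeR adjusted p = 0.00238). Of its exon bases, 2.42% lie in the neighbouring helicase gene RH22, which also rose.

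**Figure D2:**
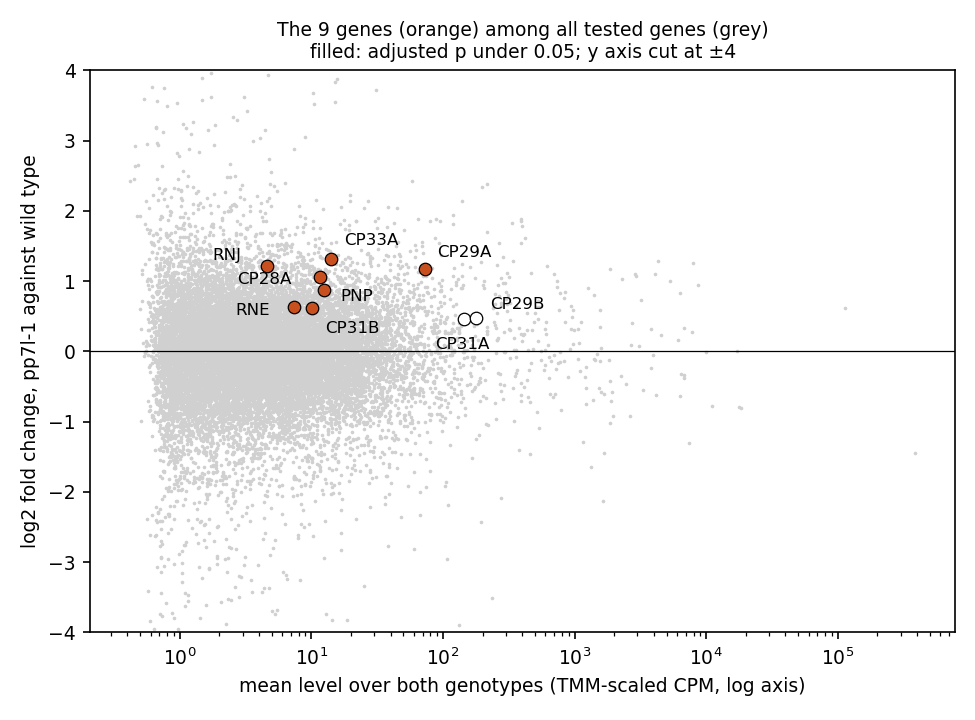
Log2 fold change (pp7l-1 against wild type) against the mean level (TMM-scaled CPM, log axis) of all 18115 tested genes in grey and the 9 genes as larger points, filled where the adjusted p was under 0.05. The 9 points lie above 0, and the open points are CP31A and CP29B, the most abundant in CPM (45 genes fall outside the vertical range).

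All 3 ribonuclease genes rose. RNJ, an RNase J with endonuclease and 5′ to 3′ exonuclease activity that trims 5′ ends and removes antisense RNA, is encoded by AT5G63420 (chromosome 5, 25400317 to 25406250, plus strand, 17 exons). It had 37, 46 and 29 counts in the wild type and 63, 110 and 114 in pp7l-1, the lowest counts of the 9 genes. In CPM these were 2.62, 2.96 and 2.69 against 5.16, 7.65 and 6.34, and every pp7l-1 value was above every wild-type value. The log2 fold change was 1.21 ± 0.23 (edgeR adjusted p = 0.00150).

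PNP (AT3G03710; chromosome 3, 919362 to 925372, plus strand, 24 exons) is polynucleotide phosphorylase, the main 3′ to 5′ exonuclease of chloroplasts, which also matures the 3′ ends of mRNAs and of the 23S ribosomal RNA. In pp7l-1 it had the smallest coefficient of variation of the 9 genes (5.21%). Its levels were 8.77, 8.04 and 9.56 CPM in the wild type and 15.8, 16.98 and 15.3 CPM in pp7l-1. The gap between the groups was wider than either group. The mean rose from 8.79 ± 0.757 to 16.1 ± 0.837 CPM, a log2 fold change of 0.87 ± 0.17 (edgeR adjusted p = 0.00251).

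RNE (AT2G04270; chromosome 2, 1474679 to 1480586, plus strand, 14 exons) is the RNase E that cuts polycistronic precursors between genes. It had 4.81, 7.14 and 5.29 CPM in the wild type and 8.36, 9.60 and 8.90 CPM in pp7l-1. The groups did not overlap, and wild-type replicate 2 was the nearest to the mutant. The log2 fold change of 0.63 ± 0.20 had an edgeR adjusted p of 0.0319. It was 0.0707 with DESeq2 and between 0.0184 and 0.136 with 1 library left out, over 0.05 without wild-type replicate 1 or 3 or pp7l-1 replicate 1 or 2. Of its exon bases, 12.3% lie in other counted genes.

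For 8 of the 9 genes the scaled levels of the groups did not overlap, all with pp7l-1 above. Among all tested genes 18.7% were separated in this direction and 19.5% in the other. Summed over the 3 ribonucleases, the level went from 16.2, 18.1 and 17.5 CPM to 29.3, 34.2 and 30.6 CPM, a 1.81-fold difference (exact two-sided permutation p = 0.1, the smallest that 3 against 3 libraries allow; adjusted p = 0.2 over 4 measures). Summed over the 6 cpRNPs, it went from 284.7, 419.5 and 311 CPM to 541, 614.9 and 410 CPM. Here pp7l-1 replicate 3 was below wild-type replicate 2 after TMM scaling. The 1.54-fold difference (log2 0.63) had an exact permutation p of 0.2 (adjusted p = 0.267). This result depended on the scaling. On library size alone the log2 difference of the cpRNP sum was 1.04 (exact permutation p = 0.1, not adjusted). Scaled on nuclear genes only, it was 0.67 (exact permutation p = 0.2, not adjusted).

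Per kilobase of exon, so that genes can be compared with each other, CP29B and CP31A were the most abundant in the wild type, at 99.5 ± 28.7 and 69.6 ± 5.17 CPM per kilobase. Their ranges did not overlap, with CP29B at 80.5, 132.6 and 85.5 and CP31A at 66.4, 75.5 and 66.7 CPM per kilobase. CP29A followed at 23.6 ± 9.93, then CP31B at 7.07 ± 0.830, CP33A at 5.57 ± 1.37 and CP28A at 5.53 ± 1.36, and these last 3 did not differ beyond their spread. The ribonucleases were lower, with PNP at 2.65 ± 0.228, RNE at 1.36 ± 0.292 and RNJ at 0.816 ± 0.0534 CPM per kilobase. In pp7l-1 the order of the means at the top was the same, although CP29B and CP31A overlapped there, with CP29B at 138.6 ± 49.0, CP31A at 95.3 ± 15.0 and CP29A at 53.2 ± 8.27, whereas CP33A (13.9 ± 3.17), CP28A (11.6 ± 1.84) and CP31B (10.8 ± 1.86) lay within each other's spread.

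**Figure D3:**
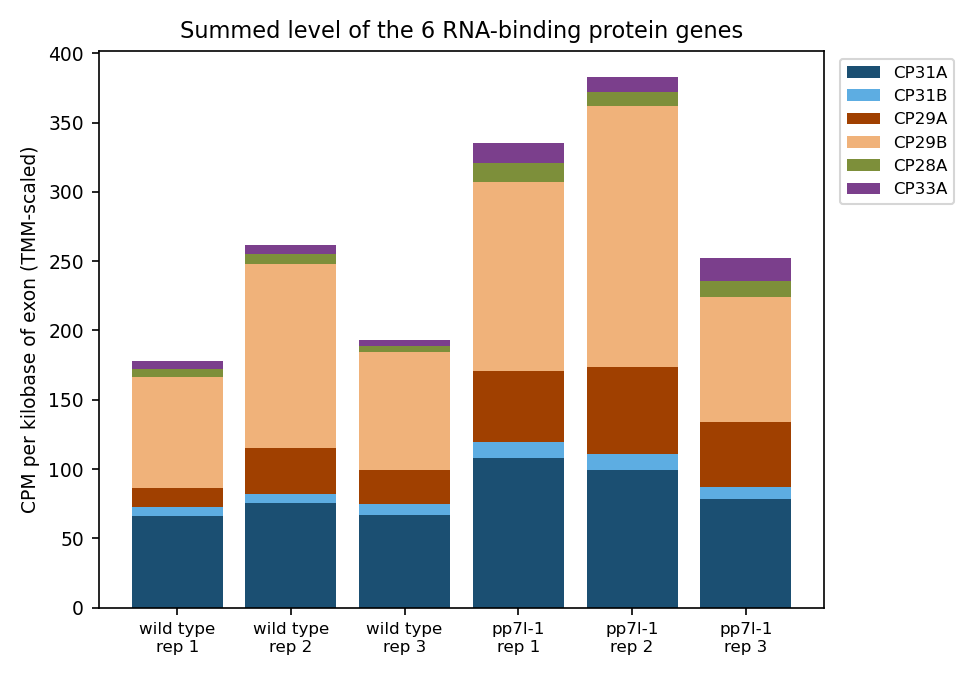
Stacked bars of the TMM-scaled CPM per kilobase of exon of the 6 cpRNP genes in each library. The sums run from 178 to 261.9 in the wild type and from 252.3 to 382.6 in pp7l-1, and CP29B and CP31A make up most of every bar.

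As a share of the sum over these 6 genes alone, CP29A made up 7.51%, 12.7% and 12.6% in the wild type and 15.1%, 16.3% and 18.5% in pp7l-1. This sum leaves out similar genes such as PSRP2 (below), at 22.8 ± 0.305 CPM per kilobase in the wild type and 42.1 ± 5.68 in pp7l-1. CP29B made up 46.7 ± 3.41% and 42.0 ± 6.77% (SD, n = 3), and CP31A 33.6 ± 4.33% and 29.8 ± 3.39%. The shares are parts of a whole and move against each other. Within the paralogue pairs, which need no scaling between libraries, the ratio of CP29A to CP29B counts was 0.210, 0.317 and 0.361 in the wild type and 0.467, 0.420 and 0.653 in pp7l-1. All pp7l-1 ratios were the higher ones, with a 1.75-fold difference and an exact permutation p of 0.1, the smallest possible (adjusted p = 0.2 over 4 measures). The ratio of CP31A to CP31B was 16.0, 17.2 and 12.9 in the wild type and 14.02, 12.9 and 14.02 in pp7l-1, and the groups overlapped (exact permutation p = 0.4).

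The transcript of ndhF, which CP31A is known to stabilise, was at 1479 ± 77.3 CPM in the wild type and 1354 ± 303.7 CPM in pp7l-1. Its log2 fold change of -0.13 ± 0.27 did not pass (edgeR adjusted p = 0.781), and its sign was positive without pp7l-1 replicate 1 (0.048) and when scaled on library size alone (0.31).

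The other genes for plastid RNA metabolism, 35 in 4 lists, showed the same direction where they were called. With edgeR 14 of 35 were higher and 0 lower, with a median log2 fold change of 0.61, against 10.6% of all tested genes higher and 11.3% lower and an all-gene median of -0.01. At an unadjusted p under 0.05, 25 were higher and 0 lower (17% and 17.7% of all tested genes), and DESeq2 called 14 higher and 0 lower (7.23% and 7.49%). Of 6 further genes with RNA recognition motifs 2 rose. PSRP2, a plastid ribosome-associated protein of the cpRNP type, went from 27.3 ± 0.365 to 50.5 ± 6.798 CPM, and AT1G01080 from 6.61 ± 1.298 to 10.8 ± 0.831 CPM (adjusted p = 0.0132, and 0.0574 without wild-type replicate 1 and 0.0656 without wild-type replicate 2). ORRM1, an editing factor, had a log2 fold change of -0.08 ± 0.24.

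Among 10 genes for other nucleases and their partners 4 rose. RHON1, which guides RNE to its cleavage sites, went from 4.42 ± 1.14 to 11.2 ± 2.68 CPM (log2 fold change 1.35 ± 0.23), and PRORP1, the protein-only RNase P of the organelles, from 3.61 ± 0.777 to 9.496 ± 0.220 CPM. TRZ2, the chloroplast tRNase Z, had only 6, 12 and 9 counts against 14, 31 and 33. Its log2 fold change was 1.36 ± 0.39 (edgeR adjusted p = 0.0221), and its adjusted p ran from 0.00221 to 0.102 over the alternatives, over 0.05 with DESeq2 and without wild-type replicate 1, pp7l-1 replicate 2 or pp7l-1 replicate 3.

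In the list of splicing factors and other RNA partners 3 of 9 rose. MTERF4, a factor of group II intron splicing in maize, went from 1.79 ± 0.327 to 6.63 ± 1.19 CPM, and its log2 fold change of 1.91 ± 0.25 was the largest of the 35. The intron splicing factors CAF1 and CFM2 had 1.09 ± 0.29 and 0.97 ± 0.22, and the adjusted p of CAF1 was 0.0138 with all libraries, 0.0648 with wild-type replicate 1 left out and 0.0650 with pp7l-1 replicate 3 left out. Of 10 helicases, S1-domain proteins and others 5 rose. The S1-domain protein SDP went from 5.62 ± 0.317 to 13.8 ± 3.905 CPM, the helicase RH39, which acts on the 23S ribosomal RNA, from 3.27 ± 0.444 to 7.82 ± 1.198 CPM, and RH3, a helicase of intron splicing and ribosome assembly, from 43.8 ± 3.495 to 97.9 ± 2.73 CPM. Of the exon bases of RH3, 13.1% lie in another counted gene.

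**Figure D4:**
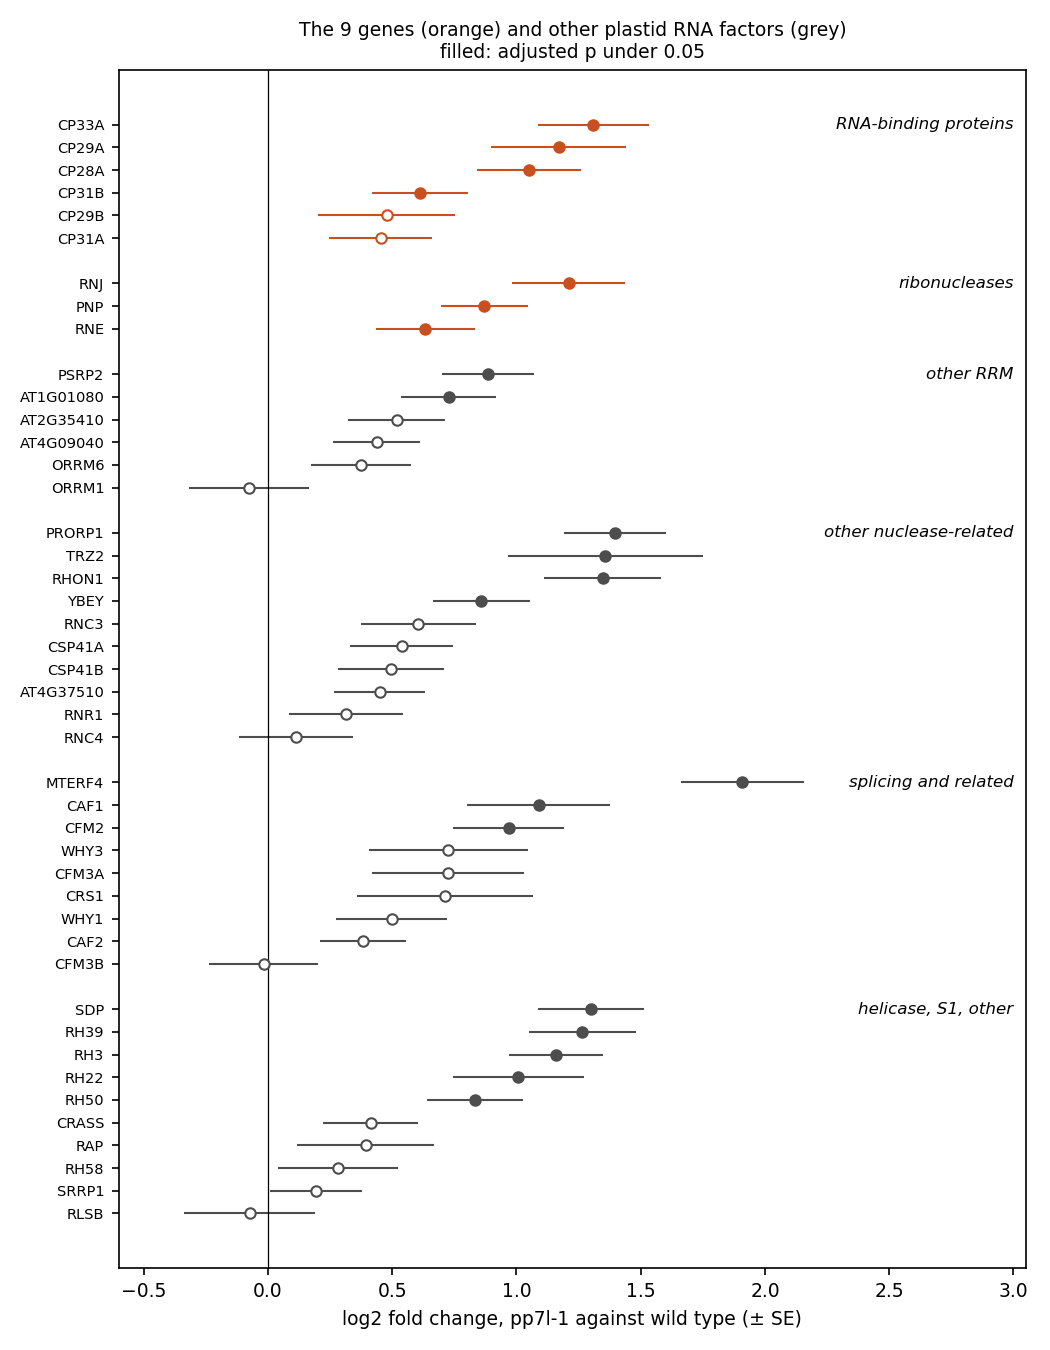
Log2 fold change ± SE of the 9 genes (orange) and of the 35 other plastid RNA factors (grey), grouped by list, filled where the edgeR adjusted p was under 0.05. Every filled point lies to the right of 0, and MTERF4 is the farthest at 1.91.

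Upstream sequence was examined because most of the 9 genes were higher in the same libraries. In the 250 bases before the outermost annotated 5′ end of each gene, 5 motifs were searched on both strands. The G-box (CACGTG) occurred upstream of 0 of the 9 genes and of 7.44% of the 17019 tested nuclear protein-coding genes, the site II element (TGGGCC) of 2 and 17.1%, the I-box (GATAAG) of 1 and 12.6%, the telo-box (AAACCCTA) of 0 and 3.40%, and the ACGT core, which the G-box contains, of 2 (RNJ and RNE) and 44.2%. The 2 upstream windows that hold an I-box or site II element are shown with the match in capitals, 5′ to 3′ on the strand of the gene, as chr5:20454042-20454291 (minus strand) for CP31B and chr5:25400067-25400316 (plus strand) for RNJ in TAIR10.1.
CP31B: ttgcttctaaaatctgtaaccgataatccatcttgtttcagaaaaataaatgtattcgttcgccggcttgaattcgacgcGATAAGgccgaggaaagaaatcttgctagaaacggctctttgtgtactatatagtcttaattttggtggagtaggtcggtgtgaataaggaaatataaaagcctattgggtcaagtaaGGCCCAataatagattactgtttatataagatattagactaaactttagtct
RNJ: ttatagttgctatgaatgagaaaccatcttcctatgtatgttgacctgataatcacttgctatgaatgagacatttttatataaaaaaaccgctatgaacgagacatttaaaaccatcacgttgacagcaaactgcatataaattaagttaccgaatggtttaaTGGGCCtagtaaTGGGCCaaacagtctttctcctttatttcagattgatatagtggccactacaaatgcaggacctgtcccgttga
RNJ held 2 site II elements, beginning 86 and 74 bases before the start of the gene. CP31B had 1 I-box at 170 and 1 site II element, on the other strand, at 52 bases before it. A match is a description of these letters only. None of the 5 motifs occurred in the windows of CP33A, CP29A, CP28A and PNP, which were called higher. The same held for CP31A and CP29B, which were not called. Whether any motif bears on the changes was not tested.

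The genes most like CP31A in their log2 CPM over the 6 libraries, among 7891 others with a mean of at least 5 CPM, were AT5G10690 (Pearson r = 0.992), the phosphate transporter gene PHT1;4 (0.991) and TPI, for cytosolic triosephosphate isomerase (0.991). For PNP they were RLP4 (0.995), PCK1, for a gluconeogenic enzyme (0.994), and OVA5, for a lysyl-tRNA synthetase (0.994). Of the 7891 genes, 263 had r above 0.9 with CP31A and 549 with PNP. For these correlations 2 was added to each CPM before the logarithm, which shrinks differences at low levels. With only 6 libraries in 2 groups, they are given as a description with no test.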

How the data were processed

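RNA sequencing reads of 6 libraries had been processed with Trimmomatic, FastQC, TopHat2 2.1.1 and featureCounts on the build TAIR10, per the submitters' processing notes. The annotation, the strand setting and the treatment of reads with several matches are not given in the sources used here, so overlapping genes are uncertain. The authors deposited raw counts per gene, 1 table per library and 33341 genes each, of which 4682 were at 0 in all libraries. Totals of 11269557 to 16744328 counts set the precision.

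From these counts, edgeR 4.0.16 (R 4.3.3) with filterByExpr (minimum count 10), TMM scaling and genotype as the only term was fitted on all genes. The quasi-likelihood test was used with Benjamini-Hochberg adjustment over 18115 genes, called at 0.05. The common BCV (coefficient of variation between replicates) was 0.196. The script was tested on simulated data. CPM were scaled by TMM, and CPM per kilobase used the union of annotated exons. Ratios and sums were compared with exact permutation tests (SciPy 1.17.1). Replicate pairs differed beyond sampling noise. The chi-square per degree of freedom was 13.7 to 23.5 between wild-type libraries and 74.3 to 121 between pp7l-1 libraries. It used raw counts with plastid and ribosomal RNA genes included, so abundant genes such as psbA weigh heavily. These values therefore do not measure how noisy a typical gene was in each genotype. Alternatives were DESeq2 1.42.0, limma 3.58.1 voom, other scalings and filters, nuclear genes only, a replicate block, and leaving out each library.

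Coordinates and sequences are from RefSeq, TAIR10.1; the count tables hold no coordinates. All 9 genes matched by locus code. The members and gene lists were chosen with earlier results of these data known. Named beside them were PP7L, ndhF, up to 3 genes past the threshold from each list by size of change, and the 3 genes most like CP31A and PNP. ORRM1 and the genes under other observations were named after their values were seen. Protein sequences were not used here.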

Additional observations from a re-analysis of the deposited data

How the results depend on the processing

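All 9 genes kept a positive log2 fold change under the 15 alternatives (135 values), and of the 7 called, CP33A, CP29A, CP28A, RNJ and PNP stayed past the threshold in each. CP31B and RNE lost the call 5 times each, with DESeq2 and with single libraries left out. CP31A and CP29B were called only when scaled on library size alone (0.85 and 0.84, adjusted p = 0.0176 and 0.0290; 0.0176 to 0.373 and 0.0290 to 0.596 over the alternatives). That scaling moved the median of all genes to 0.41 and gave 4493 genes higher and 759 lower (85.5% higher against 48.6%), 9 members and 29 other RNA factors higher. Relative to that median the 9 genes lay between 0.43 and 1.33, against 0.46 and 1.32 with TMM. With 1 library left out, 1274 to 2146 genes were higher (against 1929 with all 6; the lowest count was without pp7l-1 replicate 1, and dropping wild-type replicate 1 gave 1282) and 1384 to 2219 lower, 5 to 7 members and 11 to 16 other RNA factors were higher, and 0 of either were lower. The log2 fold change of ndhF changed sign to 0.31 with library size alone and ran from -0.25 to 0.048 with 1 library left out, positive without pp7l-1 replicate 1. Same-numbered libraries did not deviate together (correlations 0.12, -0.03 and 0.07 for numbers 1 to 3, and of the 3 wild-type libraries number 1 alone correlated best with its own). With the replicate block 7 members and 14 other factors were higher, as without it, and 1987 genes were higher and 2166 lower. The exact sign-flip permutation test over pairs gave the summed ribonucleases and cpRNPs and the CP29A to CP29B ratio p = 0.25, the smallest that 3 pairs allow, and the CP31A to CP31B ratio 0.5. Genes with few counts, as RNJ and TRZ2, are limited by depth.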

Other observations

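Among the other plastid RNA factors, YBEY, for an endonuclease of ribosomal RNA processing, rose from 5.04 ± 0.777 to 9.19 ± 1.02 CPM (SD, n = 3; log2 fold change 0.86 ± 0.20, edgeR adjusted p = 0.00561). The helicase genes RH22 and RH50 also rose, RH22 from 1.99 ± 0.549 to 4.01 ± 0.231 CPM (adjusted p = 0.0128) and RH50 from 5.23 ± 0.532 to 9.32 ± 1.49 CPM (0.00679). The RNA-binding proteins CSP41A and CSP41B, once described as endonucleases and the most abundant of their list, were at 61.9 ± 9.14 and 80.6 ± 4.70 CPM in the wild type and at 89.9 ± 15.9 and 113.7 ± 25.9 CPM in pp7l-1, and neither passed (adjusted p = 0.0753 and 0.107). Of the exon bases of CSP41A, 25.7% lie in other counted genes.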
